A study of Mus musculus with 3 samples.

Results

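The genes of adenosine and purine nucleotide signalling were taken from the deposited table by symbol: the adenosine receptors (Adora), the ATP-gated channels (P2rx), the nucleotide receptors coupled to G proteins (P2ry), the nucleotide-splitting NTPDases (Entpd), the enzymes Nt5e, Adk and Ada, and the transporters Slc29a1, Slc29a2 and Slc17a9. The rule found 33 genes among 33101 gene names with a value. Messenger RNA had been sequenced from the dentate gyrus, the part of the hippocampal formation whose principal neurons are granule cells, which was dissected on both sides from wild-type male C57BL/6 mice aged 8 to 10 weeks. The study had 1 such group of 3 libraries and no second condition. The table gives 1 value per gene for the whole group, in FPKM (fragments scaled by transcript length and by the mapped fragments of the library), so no value below has a replicate error, no test against replicate spread could be made, and the depth behind the values is unknown. The label of the tissue was set against 8 dentate granule cell markers, none of which lay below 10 FPKM; their median was 44.1 FPKM, and C1ql2 was highest at 111 FPKM.

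Cells release ATP through channels and from vesicles, and released ATP acts on P2X channels and P2Y receptors. Enzymes on the cell surface then strip its phosphates in steps, leaving adenosine, which acts on its own receptors until transporters carry it into cells and adenosine kinase turns it back into AMP. In hippocampus the pathway is best known for the A1 adenosine receptor, which restrains glutamate release and excitability, and for the P2Y12 receptor, with which microglia sense nucleotides from nearby cells.

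Of the 33 genes, 20 (60.6%) stood at 1 FPKM or more. Among all names with a value this share was 39.6%, and among 20151 protein-coding names it was 56.4%, so the share among the 33 genes was near that of protein-coding genes. Only 6 genes (18.2%) reached 10 FPKM, against 21.1% of all names and 30.8% of protein-coding names. They were Adora1, Adk, Entpd6, Entpd4, Slc29a1 and P2ry12. The other 14 of the 20 genes lay between 1 and 10 FPKM. A further 10 genes had values above 0 but under 1 FPKM, and P2rx2, P2ry10 and Entpd8 (9.09% of the 33 genes) were listed at 0, against 40.4% of all names and 24.2% of protein-coding names. The median level was 1.69 FPKM, against 2.45 FPKM for protein-coding names and 0.0869 FPKM for all names.

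**Figure D1:**
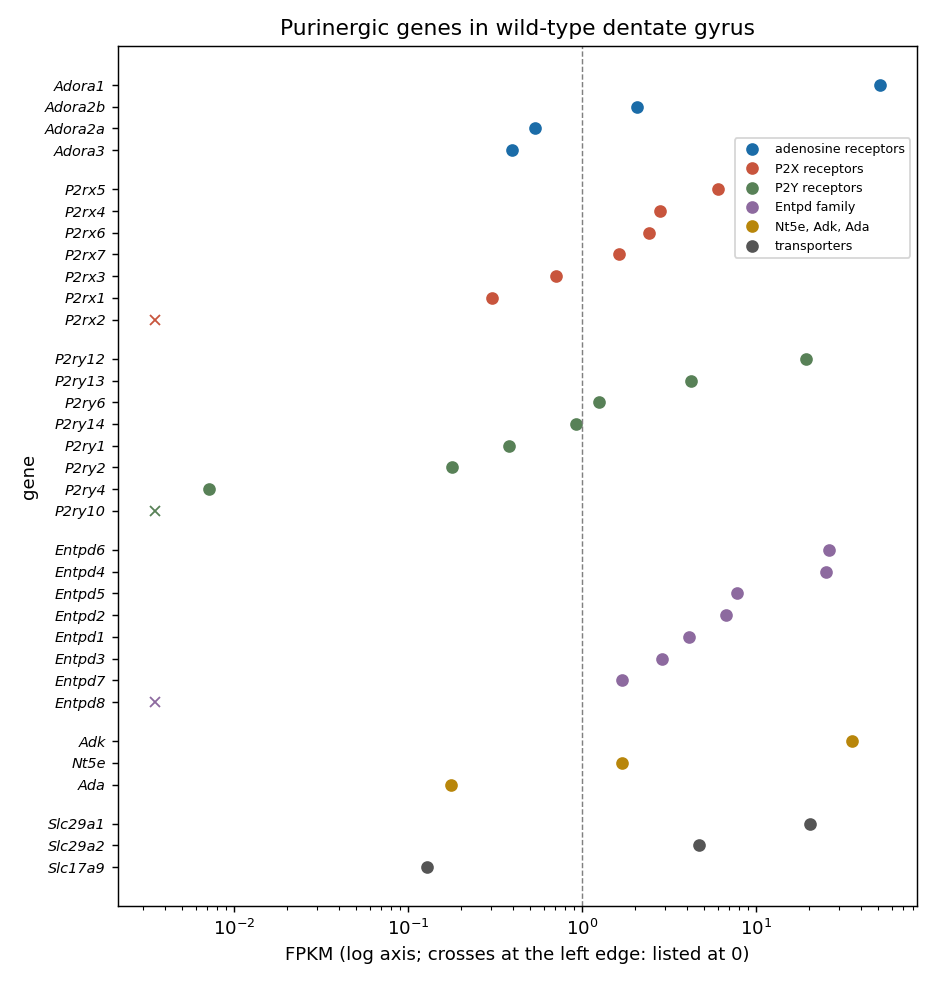
Level of each of the 33 genes (rows, grouped by role) in FPKM on a log axis, with 1 deposited value per gene for the group of 3 libraries; the dashed line marks 1 FPKM, and crosses mark genes listed at 0. In each receptor family a single gene lies highest, Adora1 at 51.6 FPKM, P2rx5 at 6.05 FPKM and P2ry12 at 19.3 FPKM.

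Among the adenosine receptors, one gene carried nearly all of the summed level. Adora1, which encodes the A1 receptor coupled to inhibitory G proteins, stood at 51.6 FPKM, the highest of the 33 genes and above 93.7% of protein-coding names. It made up 94.5% of the summed FPKM of the 4 adenosine receptor genes. Adora2b, whose receptor stimulates adenylyl cyclase and needs more adenosine than the others, was next at 2.06 FPKM. Adora2a, the receptor gene best known from striatum, was at 0.533 FPKM, and Adora3 was lowest at 0.393 FPKM. Adora1 thus exceeded Adora2b by 25.1-fold, Adora2a by 96.9-fold and Adora3 by 131-fold, as ratios of the FPKM values without a pseudocount. The same differences were 4.58, 6.35 and 6.71 on the log2(FPKM + 0.1) scale, where the added 0.1 shrinks the distance to genes of low level. The value of Adora3 is the sum of a pair of entries that bear this symbol in the table, at 0.345 and 0.0486 FPKM. The gene identifier of the lower entry belongs to Tmigd3 in GENCODE M21, and the entries overlap on the same strand, so the division of reads between them is uncertain.

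The listed transcript of Adora1 spanned 136095800 to 136131155 on the minus strand of chromosome 1 in the mm9 build, and overlapped the oppositely oriented Mybph, at 0.0539 FPKM, by 2009 bases. The sequence around a start site of Adora1 is shown because this gene leads the receptor genes. It is the RefSeq window from 250 bases before to 50 bases after the start, on the minus strand at chr1:134234807-134235106 in GRCm38.p6, with every CpG dinucleotide in capitals. Its start lies 278 bases from that of the listed transcript in GENCODE M21. It holds 24 CpG dinucleotides in 300 bases at a GC content of 66.0%.
Adora1: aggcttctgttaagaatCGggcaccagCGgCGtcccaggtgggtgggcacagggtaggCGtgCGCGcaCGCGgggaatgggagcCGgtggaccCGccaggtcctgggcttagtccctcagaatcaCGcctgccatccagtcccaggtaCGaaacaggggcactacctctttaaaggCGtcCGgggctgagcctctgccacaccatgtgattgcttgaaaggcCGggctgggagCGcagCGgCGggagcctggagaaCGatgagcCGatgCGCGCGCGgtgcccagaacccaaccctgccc

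The transducers of these receptors were read from lists of pathway genes outside the symbol rule. The counts of each such list stand against the 56.4% of protein-coding names at 1 FPKM or more and the 30.8% at 10 FPKM or more, and with so few genes a list nothing is read from them. Of 11 G protein alpha subunit genes, 10 reached 1 FPKM, around a list median of 41.6 FPKM. The highest were Gnas, the stimulatory subunit used by the A2 receptors, at 598 FPKM, and Gnao1, an inhibitory-class subunit used by the A1 receptor, at 135 FPKM, and the lowest was Gna14 at 0.0124 FPKM. Gnao1 exceeded Adora1 by 2.62-fold, with the limit that the transcript listed for Gnao1 was only 741 nt long, while its longest coding form has 5526 nt. Of 9 adenylyl cyclase genes, 6 reached 1 FPKM, led by the calcium-stimulated Adcy1 at 194 FPKM and Adcy2 at 32.8 FPKM, with Adcy7 listed at 0. Of the 4 genes for potassium channels opened by G proteins, a known target of the A1 receptor, 3 exceeded 10 FPKM. Kcnj3 was at 38.7 FPKM, Kcnj9 at 27.8 FPKM and Kcnj5 lowest at 0.303 FPKM. Among the phospholipase C beta genes, which act downstream of P2Y receptors coupled to Gq, Plcb1 was highest at 35.9 FPKM, Plcb3 stood at 4.36 FPKM and Plcb2 was lowest at 0.605 FPKM.

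The P2X genes, each encoding a subunit of trimeric cation channels opened by ATP, lay at 6.05 FPKM or below. Of 7 genes, 4 reached 1 FPKM and none reached 10 FPKM, against 56.4% and 30.8% of protein-coding names, so the first count was near that background. P2rx5 was highest at 6.05 FPKM and made up 43.6% of the family's summed FPKM. Its listed transcript spanned 72973923 to 72986187 on the plus strand of chromosome 11 in mm9. P2rx5 exceeded P2rx4, a channel found in neurons and microglia, by 2.18-fold. P2rx4 at 2.78 FPKM and P2rx6 at 2.42 FPKM, whose subunit forms channels poorly by itself, differed by only 1.15-fold, and with no replicate error their order is not established. P2rx7, the channel that needs the highest ATP concentrations and is best known from microglia and macrophages, was at 1.62 FPKM, so that P2rx4 exceeded it by 1.71-fold. The listed transcript of P2rx7 was a coding form of 2576 nt, against 4936 nt for the longest, and that of P2rx6 was not in GENCODE M21. P2rx3, best known from sensory neurons, stood at 0.709 FPKM, and P2rx1, best known from smooth muscle and platelets, at 0.305 FPKM. P2rx2 was listed at 0. A failed estimate can also appear as 0 in such tables, so this value does not show absence.

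The P2Y genes had the lowest median of the 6 role groups, 0.654 FPKM. P2ry12, an ADP receptor coupled to inhibitory G proteins, stood at 19.3 FPKM, above 81.0% of protein-coding names, and made up 73.4% of the summed FPKM of the 8 genes. P2ry13, another ADP receptor of the same coupling, was at 4.23 FPKM, and P2ry14, the receptor for UDP-sugars, at 0.927 FPKM. P2ry12 exceeded P2ry13 by 4.56-fold and P2ry14 by 20.8-fold. These 3 genes held 93.0% of the family's summed FPKM. The 4 genes for receptors coupled to Gq held 6.95% of it, a grouping made after the values were seen. Of these, P2ry6, the UDP receptor, was at 1.26 FPKM and exceeded P2ry2, which responds to ATP and UTP, at 0.179 FPKM, by 7.01-fold. P2ry1, the ADP receptor of this class, was at 0.382 FPKM, and P2ry12 exceeded it by 50.4-fold. P2ry4, also of this class, was at 0.00719 FPKM, and P2ry10, whose receptor is better known for lipid ligands, was listed at 0.

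P2ry12, P2ry13 and P2ry14 are neighbours on the minus strand of chromosome 3. In mm9 the listed transcript of P2ry14 spanned 58918548 to 58934546, that of P2ry13 spanned 59011818 to 59014804 and that of P2ry12 spanned 59020193 to 59066753, with 5.39 kb between the last pair. The related receptor gene Gpr171 lies beside P2ry14 in the same stretch of 166 kb and was listed at 0. The table holds other neighbours of the same families. P2rx7 and P2rx4 lie 23.3 kb apart on chromosome 5, at 1.62 and 2.78 FPKM. P2rx1 and P2rx5 lie 145 kb apart on chromosome 11, at 0.305 and 6.05 FPKM. P2ry6 and P2ry2 lie 32.2 kb apart on chromosome 7. Outside the rule, Gpr17, an orphan receptor gene of oligodendrocyte precursors related to the P2Y family, was at 9.23 FPKM, and the microglial receptor gene Gpr34 was at 6.83 FPKM.

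The start-site windows of P2ry12 and P2ry13 are shown because the genes are adjacent, lead the P2Y family and both have few CpG dinucleotides there, again in capitals. Both come from RefSeq in GRCm38.p6 and lie on the minus strand, at chr3:59262936-59263235 for P2ry12 and chr3:59210833-59211132 for P2ry13. They hold 4 and 6 CpG dinucleotides in 300 bases, each at a GC content of 42.3%.
P2ry12: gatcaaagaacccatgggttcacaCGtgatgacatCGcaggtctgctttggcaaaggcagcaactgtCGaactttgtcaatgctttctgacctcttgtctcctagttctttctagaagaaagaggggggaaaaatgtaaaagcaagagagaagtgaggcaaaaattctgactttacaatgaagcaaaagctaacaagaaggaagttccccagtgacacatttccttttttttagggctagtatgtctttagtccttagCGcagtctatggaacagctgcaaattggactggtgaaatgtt
P2ry13: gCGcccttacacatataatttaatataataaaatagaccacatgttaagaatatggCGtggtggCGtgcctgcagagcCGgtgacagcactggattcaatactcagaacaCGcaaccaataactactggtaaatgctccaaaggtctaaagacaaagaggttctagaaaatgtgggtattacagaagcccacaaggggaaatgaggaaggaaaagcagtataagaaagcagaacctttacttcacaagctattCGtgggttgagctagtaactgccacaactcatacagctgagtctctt

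P2ry12 is a widely used marker of microglia, and its level was set beside 10 other microglial markers, a list on which it does not stand. These markers had a median of 18.9 FPKM, with C1qb at 38.9 FPKM and Aif1 lowest at 3.51 FPKM. P2ry12 lay in the middle of them, with 5 of 10 markers above it, and exceeded the fractalkine receptor gene Cx3cr1, at 10.9 FPKM, by 1.77-fold. P2ry13 and Entpd1 had 9 of the 10 markers above them, and P2rx4, P2rx7, P2ry6 and Adora3, which microglia are also known to express, had all 10 above them. Which cells carried any of these transcripts was not tested. In whole tissue, fewer cells of a type and less RNA per cell cannot be told apart. Adora2a was likewise set beside 7 markers of striatal projection neurons, which had a median of 2.23 FPKM, with Ppp1r1b at 27.4 FPKM and Penk at 20.3 FPKM. Adora2a exceeded Drd2, its partner in one class of these neurons, by 3.08-fold, at 0.533 against 0.173 FPKM.

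**Figure D2:**
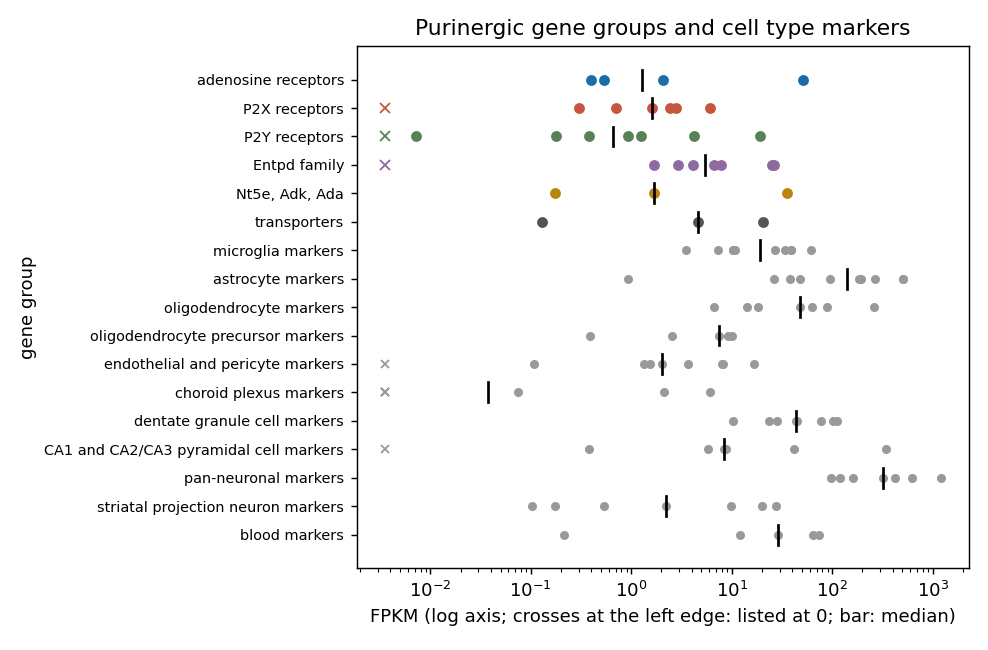
FPKM on a log axis for each gene (points) of the 6 purinergic role groups (coloured) and of 11 cell type marker lists (grey), with bars at the medians and crosses for genes listed at 0. The P2Y median of 0.654 FPKM lies far left of the microglial marker median of 18.9 FPKM, while P2ry12, at 19.3 FPKM, lies beside it and P2ry13, at 4.23 FPKM, just right of the lowest marker, Aif1 at 3.51 FPKM.

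Markers of other cell types were read in the same way. The medians were 318 FPKM for pan-neuronal, 140 FPKM for astrocyte, 47.4 FPKM for oligodendrocyte, 7.45 FPKM for oligodendrocyte precursor, 2.02 FPKM for endothelial and pericyte, 8.48 FPKM for pyramidal cell and 29.2 FPKM for blood markers. Choroid plexus markers had a median of 0.0372 FPKM, with 3 of 6 listed at 0, against 24.2% of protein-coding names. Kl was highest of them at 6.06 FPKM and Ttr next at 2.13 FPKM. The transcript listed for Prlr, which was among those at 0, is a retained-intron form, so its value may not speak for the coding forms. All of these medians depend on the genes in each list and do not measure shares of cells. The astrocyte median lies between Gja1 at 94.4 FPKM and Gfap at 186 FPKM. The transcript listed for Gfap is a form of 356 nt not annotated as coding, against 2648 nt for its longest coding form, which limits this median.

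Of the NTPDases, which remove phosphates from nucleoside tri- and diphosphates, 7 of 8 reached 1 FPKM, against 56.4% of protein-coding names and 39.6% of all names. Their median of 5.39 FPKM was the highest of the 6 role groups. The highest members were a pair that works mainly inside the cell. Entpd6, a Golgi enzyme that is also secreted, stood at 26.2 FPKM and Entpd4, which acts in the Golgi and on lysosome-related vesicles, at 25.3 FPKM. Their ratio of 1.04 does not establish an order, as there is no replicate error. The transcript listed for Entpd4 was a coding form of 1842 nt, against 3589 nt for the longest, which limits its value and the ratios to it. In mm9 the listed transcript of Entpd6 spanned 150574778 to 150597411 on chromosome 2 and that of Entpd4 spanned 69955208 to 69984799 on chromosome 14. Entpd5, the UDP-splitting enzyme of the endoplasmic reticulum, was at 7.76 FPKM, lower than Entpd4, which exceeded it by 3.26-fold, and Entpd7 was at 1.69 FPKM, exceeded by Entpd4 by 14.9-fold. The 4 mainly intracellular members held 81.7% of the family's summed FPKM and the 4 surface members 18.3%, a grouping made after the values were seen.

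Among the surface members, which act on extracellular nucleotides, Entpd2, which prefers ATP over ADP, stood at 6.67 FPKM. Entpd1, also known as CD39, which takes ATP down to AMP, was at 4.11 FPKM, and Entpd3 at 2.89 FPKM. Entpd2 exceeded Entpd1 by 1.62-fold and Entpd3 by 2.31-fold. The transcript listed for Entpd1 was a coding form of 2409 nt, against 4221 nt for the longest, which limits its value and the ratio to it. The place of Entpd2 carries a limit: its entry overlapped Npdc1, at 150 FPKM on the same strand, by 1973 of its 5450 bases, and its listed transcript was not in GENCODE M21. The part of Npdc1 reads in the value of Entpd2 was not tested. Entpd1 overlapped Gm8783, at 16.4 FPKM, by 522 of 127398 bases, and Entpd7 overlapped the oppositely oriented Cox15, at 8.99 FPKM, by 444 bases. Entpd8 was listed at 0, but its listed transcript is a retained-intron form of 558 nt, so this value does not speak for the coding forms.

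The enzymes around adenosine itself were far apart in level. Adk, the kinase that returns adenosine to AMP and is the main route of adenosine clearance in adult brain, stood at 35.6 FPKM, second among the 33 genes and above 90.0% of protein-coding names. Nt5e, also known as CD73, the surface enzyme that makes adenosine from AMP, was at 1.69 FPKM, and Ada, the deaminase that turns adenosine into inosine, at 0.176 FPKM. Adk exceeded Nt5e by 21.02-fold and Ada by 202-fold, or by 4.31 and 7.01 on the log2(FPKM + 0.1) scale. Entpd2, at the start of the surface chain, exceeded Nt5e, at its end, by 3.94-fold. All 3 listed transcripts were coding forms. Of 5 other surface enzyme genes of nucleotide breakdown, 2 reached 1 FPKM, namely the lysophospholipase and phosphodiesterase gene Enpp2 at 11.9 FPKM and the alkaline phosphatase gene Alpl at 1.55 FPKM, and Acpp, a phosphatase gene known from nociceptive neurons, was lowest at 0.0191 FPKM.

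The listed transcript of Adk spanned 21871855 to 22267769 on the plus strand of chromosome 14 in mm9. Its start-site window is shown as the contrast in CpG content to P2ry12. It lies at chr14:21052324-21052623 on the plus strand in GRCm38.p6 (RefSeq), with 21 CpG dinucleotides in capitals and a GC content of 61.7%.
Adk: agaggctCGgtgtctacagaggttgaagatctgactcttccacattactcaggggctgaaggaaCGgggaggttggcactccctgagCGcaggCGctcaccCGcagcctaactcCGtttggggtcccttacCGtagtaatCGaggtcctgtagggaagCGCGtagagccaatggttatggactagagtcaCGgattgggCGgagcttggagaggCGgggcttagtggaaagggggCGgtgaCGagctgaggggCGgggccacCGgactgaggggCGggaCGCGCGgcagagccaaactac

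Inside the cell, 17 of 23 genes of purine turnover reached 1 FPKM, against 56.4% of protein-coding names. The list median was 17.0 FPKM. Ahcyl2 was highest at 139 FPKM and the adenylate kinase gene Ak5 next at 129 FPKM, while Ampd1, Nt5c1b and Pnp were listed at 0. The transcript listed for Nt5c1b is annotated as a nonsense-mediated decay form, so its value may not speak for the coding forms. For Pnp the listed transcript has 2942 nt, while the longest coding form under its listed gene identifier has 750 nt. Transcript and gene identifier thus do not match in GENCODE M21, which limits the value of Pnp. Ahcyl2 encodes a relative of the enzyme that frees adenosine from S-adenosylhomocysteine, and its listed transcript was not in GENCODE M21. The list was read for counts and level only, since it mixes routes that make and use adenosine.

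Of the transporters, Slc29a1, the main equilibrative nucleoside transporter through which adenosine crosses the membrane, stood at 20.4 FPKM. Its listed transcript spanned 45722149 to 45736552 on the minus strand of chromosome 17 in mm9. Slc29a2, a relative with lower affinity for adenosine, was at 4.66 FPKM, exceeded by Slc29a1 by 4.37-fold. Slc17a9, which loads ATP into vesicles, was at 0.129 FPKM. Its relative Slc17a7, the vesicular glutamate transporter gene of these neurons, stood at 318 FPKM and exceeded Slc17a9 by 2463-fold. Of the 8 SLC17 relatives of Slc17a9, 2 reached 1 FPKM, the other being the lysosomal sialic acid exporter gene Slc17a5 at 5.17 FPKM, and 4 were listed at 0. Among 5 other nucleoside transporter genes, Slc29a4, better known as a monoamine transporter, was at 31.2 FPKM, above both members of its family under study, and Slc29a3, which acts in lysosomes and mitochondria, was at 4.48 FPKM. The 3 sodium-coupled transporter genes Slc28a1, Slc28a2 and Slc28a3 were listed at 0. The transcript listed for Slc28a3 is a nonsense-mediated decay form of 757 nt, against 4567 nt for its longest coding form. Its value may thus not speak for the coding forms.

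Of 8 genes for channels through which ATP can leave cells, 6 reached 1 FPKM and 4 reached 10 FPKM, where the vesicular ATP transporter gene Slc17a9 stood at 0.129 FPKM. The astrocyte connexin genes Gja1 and Gjb6 were highest at 94.4 and 54.7 FPKM, and Panx3 and Calhm1 were listed at 0. Counted over all 10 pathway lists, 53 of 81 genes outside the symbol rule reached 1 FPKM and 15 were listed at 0, against 56.4% and 24.2% of protein-coding names.

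**Figure D3:**
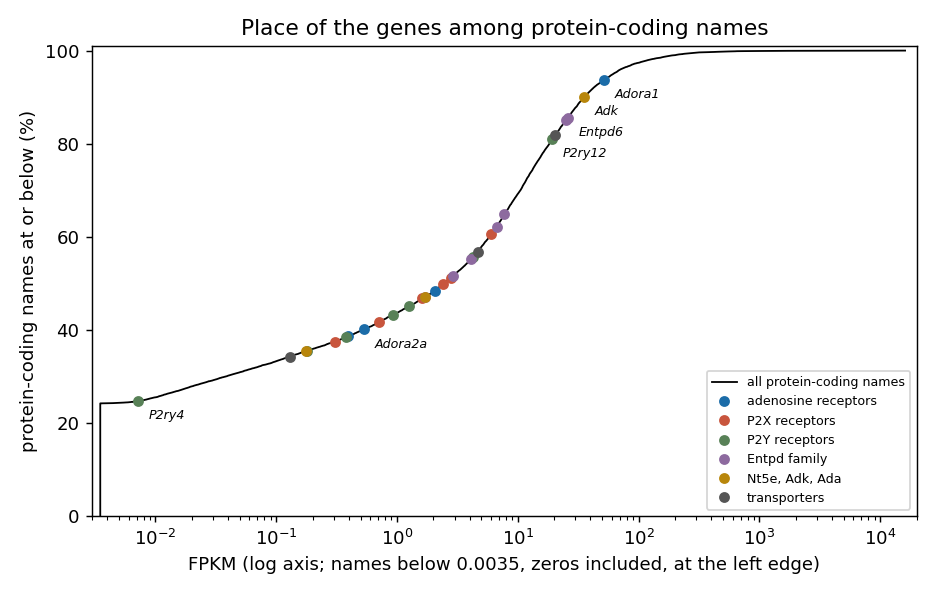
Share of 20151 protein-coding names at or below each FPKM value (black line, log axis), with the genes above 0 placed on it as points coloured by role. Adora1 lies above 93.7% of protein-coding names and Adk above 90.0%, while Adora2a lies above 40.1% and P2ry4 above 24.7%; the vertical rise at the left edge holds the names listed at 0 together with a few just above it.

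CpG content around the start site was compared with level, a description chosen after the values were seen. RefSeq windows within 500 bases of the listed start, or single windows where the listed transcript was not in GENCODE M21, were found for 24 of the 33 genes. CpG content was taken as the observed count over that expected from the C and G content, and windows at 0.6 or more were called CpG-rich. This held for 12 of the 24 genes and for 53.4% of 12625 protein-coding names treated alike. Of the 12 CpG-rich genes, 9 reached 1 FPKM, and of the 12 CpG-poor genes, 7 did; the medians of both sets were 2.42 and 2.02 FPKM. Over protein-coding names the contrast was wide: 82.8% of CpG-rich and 28.4% of CpG-poor names reached 1 FPKM.

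Single genes lay on both sides of that pattern. Adora1 had a ratio of 0.738 and Adk of 0.783, both CpG-rich and high in level. P2ry12, at 0.302, and Slc29a1, at 0.526, were CpG-poor and stood at 19.3 and 20.4 FPKM. P2ry2, at 0.796, was the most CpG-rich of the 24 windows and stood at 0.179 FPKM. P2rx6 had the lowest ratio of the 24 windows, 0.152, and stood at 2.42 FPKM. Entpd8, P2ry4 and P2ry10, listed at 0 or near it, had ratios of 0.196, 0.200 and 0.227, with the limit given above for the value of Entpd8. The rank correlation of CpG ratio with FPKM was 0.39 over the 24 genes and 0.61 over the protein-coding names. Both are correlations across genes of 1 set of values, which share their libraries, and genes are not replicates. The motif GGGCGG, which contains a CpG and was searched on both strands, occurred in 13 of the 24 windows (54.2%) and in 51.3% of those of protein-coding names. TATAAA, searched in the same way, occurred in 2 (8.33%) against 12.5%.

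**Figure D4:**
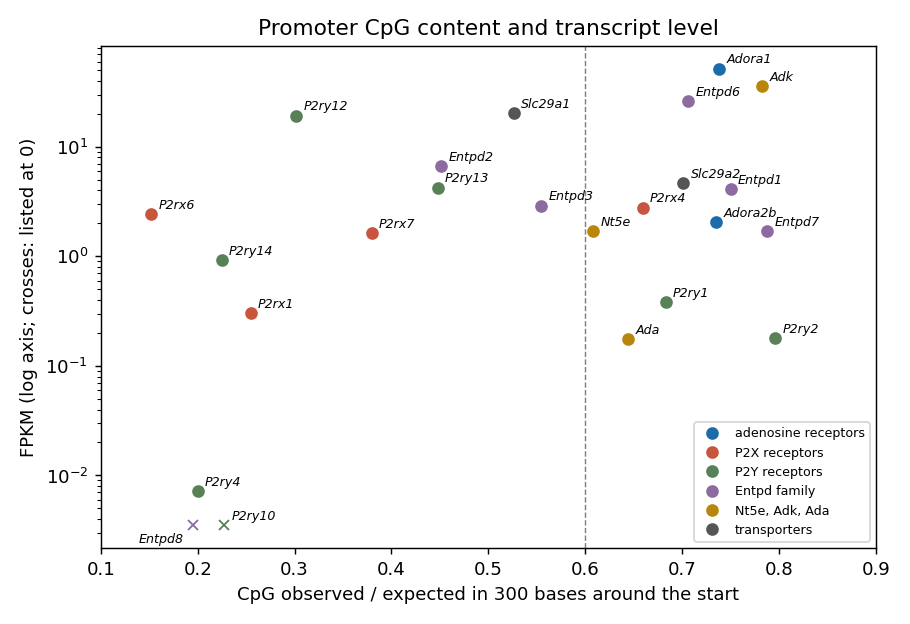
Observed over expected CpG count in 300 bases around the start site (horizontal axis) against FPKM (log axis) for 24 genes, coloured by role, with crosses for genes listed at 0 and a dashed line at 0.6. Adora1 and Adk lie at the upper right, P2ry12 at the upper left with a ratio of 0.302, and P2ry2 at the lower right with a ratio of 0.796.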

How the data were processed

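Per the labels' protocols, poly(A) RNA of 3 wild-type dentate gyrus samples was fragmented, copied from random primers and sequenced (Illumina HiSeq). The protocol names no strand-marking step, so a gene's reads and those of an antisense partner were not separable. The submitters' processing notes name TopHat, Cufflinks, mm9 and NCBIM37, without versions. The authors deposited 1 column of FPKM values for the whole series, named so per the file headers. No source used here says whether it pools or averages the libraries, or whether a value belongs to the gene or to the transcript listed beside it. No value per library was analysed here.

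The table has 37681 entries, of which 1212 hold no value and were left out. Entries that share a symbol were summed, giving 33101 names; the symbol rule found 34 entries of 33 genes. Positions are given 1-based. Types and lengths of genes and transcripts came from GENCODE M21 by Ensembl identifier, which was found for 32661 entries, and none of its coordinates were mixed with those of mm9. The listed transcript was a coding form for 31 of the 34 entries, a retained-intron form for Entpd8, and not in GENCODE M21 for Entpd2 and P2rx6. Start-site windows came from RefSeq (GRCm38.p6). The table of windows held 26 of the 33 genes, and 2 genes were left out because the nearest window lay more than 500 bases from the listed start.

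The members, gene lists, 23 gene pairs and levels of 1 and 10 FPKM were chosen with earlier results of these data known. Every gene of the rule is named, with the 2 highest and the lowest gene of each list that is described gene by gene, where genes tied at 0 share the lowest place, and both genes of each pair. Other marker lists are given by their medians, and some genes that this names are not reported here. No p-value is given. Summing, the symbol rule, percentiles and CpG counts were tested on simulated data. The tools were Python 3.11.15, pandas 2.3.3, numpy 2.4.6 and matplotlib 3.10.9.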

Additional observations from a re-analysis of the deposited data

How the results depend on the processing

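The number of genes at 1 FPKM or more, 20 of 33, was 23 at a level of 0.5 FPKM and 16 at 2 FPKM. Keeping the highest entry for shared symbols could not change it. Only Adora3 has more than 1 entry, and its sum of 0.393 FPKM lies below 1 FPKM. The direction of the 23 gene pairs could not depend on a pseudocount of 1 or 0.01 FPKM, because the same amount is added to both genes. Only the size of the differences moved with it. With the highest entry kept, only the pair of Adora1 and Adora3 moved, from 6.71 to 6.86 on the log2(FPKM + 0.1) scale. These settings therefore give no support to the directions. The pathway count of 53 was 55 at 0.5 FPKM and 49 at 2 FPKM. Medians of the role groups moved with the summary. The mean on the log2(FPKM + 0.1) scale, turned back to FPKM, was 2.33 for the adenosine receptors (median 1.29), 1.04 for P2X, 0.701 for P2Y, 4.004 for the NTPDases, 2.50 for Nt5e, Adk and Ada, and 2.72 for the transporters (median 4.66). Without genes listed at 0 the medians were 2.02 FPKM for P2X, 0.927 FPKM for P2Y and 6.67 FPKM for the NTPDases. No paired analysis was possible because the table holds a single column of values, and for the same reason no library could be left out. The depth is unknown, so values far below 1 FPKM, such as those of P2ry4, Slc17a9 and Ada, have no known precision, and ratios over them may be far off.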
